A study of Mus musculus with 19 samples.

Results

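The 9 genes described here, Serpinb1a, Serpinb2, Serpinb3a, Serpinb3b, Serpinb3c, Serpinb5, Serpinb8, Serpinb11 and Serpinb12, are clade B serpins with known expression in epithelia. They were chosen by gene symbol, with earlier results of these data known. They are 9 of the 34807 genes in the count table, which also holds 16 other clade B serpins. Serpins are protease inhibitors that work once: the protease cuts an exposed loop of the serpin and is trapped in a covalent complex as the serpin changes shape. Those of clade B lack a classical signal peptide and act mainly inside the cell that makes them, and in stratified epithelia such as the epidermis they are found in the basal and the differentiating keratinocytes, where they meet proteases of lysosomes, of the cell surface and of infiltrating leukocytes.

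The study asked which epidermal cells give rise to squamous cell carcinoma when the MAPK pathway is activated in them, and compared tumours by the promoter that drove recombination. Bulk RNA sequencing was done on 19 libraries of fresh frozen mouse tissue, all labelled female. The 6 Ivl:BRAFV600E and 5 K5:BRAFV600E libraries and the 4 K14:BRAFV600E libraries came from tumours labelled squamous cell carcinoma, and the 4 libraries of normal skin came from mice labelled WT. In the tumour mice BRAFV600E, an activated form of the kinase BRAF, was switched on by a tamoxifen-inducible Cre. The labels give 7 to 20 weeks of age for this, and the methods of the study give a narrower range inside it. Cre was driven by the promoter of involucrin (Ivl), made by committed keratinocytes, or of keratin 5 (K5) or keratin 14 (K14), made by basal keratinocytes. According to the methods of the study, tamoxifen was applied for the Ivl mice and 4-hydroxytamoxifen for the K5 and K14 mice. The study also reports later onset, slower growth and lesions at more body sites in the Ivl mice. The promoter therefore cannot be told apart from the agent, the time to onset, the growth or, possibly, the body site. The induction text stands on the labels of the skin libraries too, and whether that skin was treated is not given in the sources used here. K5 and K14 tumours were merged, following the methods of the study, and were also compared with each other. The merged group holds 9 K5/K14 tumours. The labels do not say whether the tumours of a group came from separate mice, so p-values measure only the spread between these samples.

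Library totals ran from 45715309 to 72609771 counts, which leaves counting error small for the members other than Serpinb3c and, in skin, Serpinb3a. Levels are given as CPM, counts scaled to a common library total after TMM, edgeR's correction for differences in RNA composition. Of all 3876 possible sets of 4 libraries, the set of Ivl 1, Ivl 2, Ivl 3 and K5 1 stood apart: for 96.6% of 13954 genes the means inside and outside the set lay less than 0.1 log2 apart, against 64.1% in the next set and 29.5% in the median set. The study adjusted its counts between sequencing batches of 4 and 15 libraries without naming which library was in which, so the tests of the members against skin and between Ivl and K5/K14 tumours, and the counts of serpins, proteases and inhibitors by list, are given with all 19 libraries and again within those 15. The order of levels, the keratinocyte scales and the counts of cell type markers are given for all 19 only. No pair of libraries of a group agreed within sampling noise. The tumours carried the markers of their labelled tissue: summed basal keratinocyte markers (7 genes) reached 4101 to 9077 CPM in skin and 10888 to 66552 CPM in tumours, and summed differentiated keratinocyte markers (8 genes) 2728 to 5822 and 10317 to 57571 CPM. Skin also held 2094 to 6080 CPM of skeletal muscle markers, which reached 3675 CPM in 1 Ivl tumour and were at a median of 8.96 CPM over all 15. In bulk tissue, fewer cells of a type and less RNA per cell cannot be told apart.

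Of the 9 members, 8 lie in the clade B serpin cluster of chromosome 1, with 4 other serpins between them, and Serpinb1a lies on chromosome 13 at chr13:32842092-32851185 (GRCm38, GENCODE M21, minus strand). The order of the members on chromosome 1 is Serpinb5 (chr1:106861173-106883348), Serpinb12 (chr1:106934449-106957080), Serpinb3a (chr1:107045587-107052303), Serpinb3b (chr1:107153940-107278361), Serpinb3c (chr1:107271201-107278371), Serpinb11 (chr1:107361198-107380475), Serpinb2 (chr1:107511423-107535478) and Serpinb8 (chr1:107590006-107610484). The Serpinb3 genes are on the minus strand and the others on the plus strand. All 9 are annotated as protein coding.

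The Serpinb3 genes are recent copies of each other. The coding sequences of Serpinb3a and Serpinb3b were 92.9% identical, those of Serpinb3a and Serpinb3c 91.3%, and those of Serpinb3b and Serpinb3c 93.1%, whereas Serpinb5 and Serpinb12 shared 50.5%. The copies differ at 128 aligned coding positions, and the first 60 coding bases hold 17 of them, against a median of 6 in a window of that size. These first 60 bases are shown because they let a reader see how the 3 transcripts are told apart. They lie within 1 exon at chr1:107051711-107051770 for Serpinb3a, chr1:107159718-107159777 for Serpinb3b and chr1:107276955-107277014 for Serpinb3c (GRCm38, minus strand, written 5′ to 3′). Capitals mark the positions at which the copies differ.
Serpinb3a: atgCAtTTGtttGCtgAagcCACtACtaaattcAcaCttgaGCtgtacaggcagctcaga
Serpinb3b: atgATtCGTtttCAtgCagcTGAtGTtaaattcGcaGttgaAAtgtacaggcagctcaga
Serpinb3c: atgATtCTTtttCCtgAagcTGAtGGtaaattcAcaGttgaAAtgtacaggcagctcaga
Of the windows of 101 bases, the length of 1 read, in their spliced transcripts, 0.451% of those of Serpinb3b and 0.449% of those of Serpinb3c also stood in the other copy. The annotated exons of Serpinb3b and Serpinb3c overlap over 35 bases on the same strand. For Serpinb3a 6.47% of windows stood in the pseudogene Gm8080, and for Serpinb2 7.49% stood in Serpinb10, whose exons overlap those of Serpinb2 over 291 bases on the same strand. Reads from these stretches could be lost or split between the genes, which makes the Serpinb3 copies and Serpinb2 less certain than the other 5 members, so the counts of the 3 copies were also summed and tested as 1 gene.

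A stretch of the promoters of the 3 copies, placed at a motif that all 3 share, is alike too, although their levels were far apart. The rest of these promoters was not compared. The stretch of 100 bases shown next, from the RefSeq promoters of GRCm38.p6 that start 250 bases before and end 50 bases after the transcription start, differs at 9 positions, again in capitals. It lies at chr1:107052344-107052443 for Serpinb3a, chr1:107161131-107161230 for Serpinb3b and chr1:107278378-107278477 for Serpinb3c, on the minus strand.
Serpinb3a: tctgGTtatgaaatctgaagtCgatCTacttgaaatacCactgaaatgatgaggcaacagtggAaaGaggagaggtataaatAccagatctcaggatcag
Serpinb3b: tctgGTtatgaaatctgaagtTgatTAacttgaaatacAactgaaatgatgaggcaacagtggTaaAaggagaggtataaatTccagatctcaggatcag
Serpinb3c: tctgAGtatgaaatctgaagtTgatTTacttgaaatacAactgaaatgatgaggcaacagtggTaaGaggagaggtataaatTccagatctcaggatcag
All 3 hold the letters TATAAA, a core promoter motif, starting at -65 (Serpinb3a), -41 (Serpinb3b) and -31 (Serpinb3c) from the transcription start. These letters stand in 5 of the 8 members with a promoter entry, and in 8.32% of all 32851 promoters of 300 bases. The 5 include the 3 similar copies and Serpinb12, where they start at -220 or -201. A member was counted if any of its promoters matched, so counts of members and shares of promoters are not fully alike. AP-1 factors (Fos and Jun proteins) are downstream of the MAPK pathway, so the promoters were also searched on both strands for the letters TGANTCA. These stood in 5 of the 8 members (Serpinb5, Serpinb12, Serpinb2, Serpinb8 and Serpinb11) and in 7.81% of all promoters. The stretches of 37 bases around the match are shown for 4 of them with the match in capitals (in Serpinb11 they run into an annotated exon), at chr1:106861020-106861056 for Serpinb5, chr1:106934389-106934425 for Serpinb12, chr1:107511314-107511350 for Serpinb2 and chr1:107589968-107590004 for Serpinb8, all on the plus strand.
Serpinb5: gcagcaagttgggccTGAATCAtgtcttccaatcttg
Serpinb12: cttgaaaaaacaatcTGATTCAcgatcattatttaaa
Serpinb2: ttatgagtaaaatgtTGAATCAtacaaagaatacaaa
Serpinb8: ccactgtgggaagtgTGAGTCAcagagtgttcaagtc
Only the match of Serpinb8 is the AP-1 consensus TGACTCA, read on the other strand, which stands in 5.2% of all promoters. The STAT motif TTCNNNGAA stood in 1 of the 8 (Serpinb2) and in 8.3% of all promoters, and the E-box CACGTG in 0 of the 8 and in 7.15%. A match is a description of the letters and not a binding site.

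All 9 members were higher in Ivl tumours than in normal skin, and all 9 were higher in K5/K14 tumours, at an adjusted p under 0.05 in edgeR's quasi-likelihood test with Benjamini-Hochberg adjustment over 32031 genes. Of all genes tested, 20.4% were raised in Ivl tumours and 23.2% in K5/K14 tumours. Because the members were chosen with earlier results of these data known, the count of 9 describes these genes and is not a test. The median log2 fold change of the members was 2.80 in Ivl tumours and 2.29 in K5/K14 tumours, against -0.46 and -0.60 over all genes tested. The fold in Ivl tumours ran from 2.48 for Serpinb8 and 2.95 for Serpinb5 to 73 for Serpinb12 and 1305 for Serpinb3a. Both comparisons use the same 4 skin libraries and so are not independent. Within the 15 libraries all 9 were again called in both comparisons, with medians of 3.15 and 2.36, where 22.2% and 23.9% of all genes were raised.

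**Figure D1:**
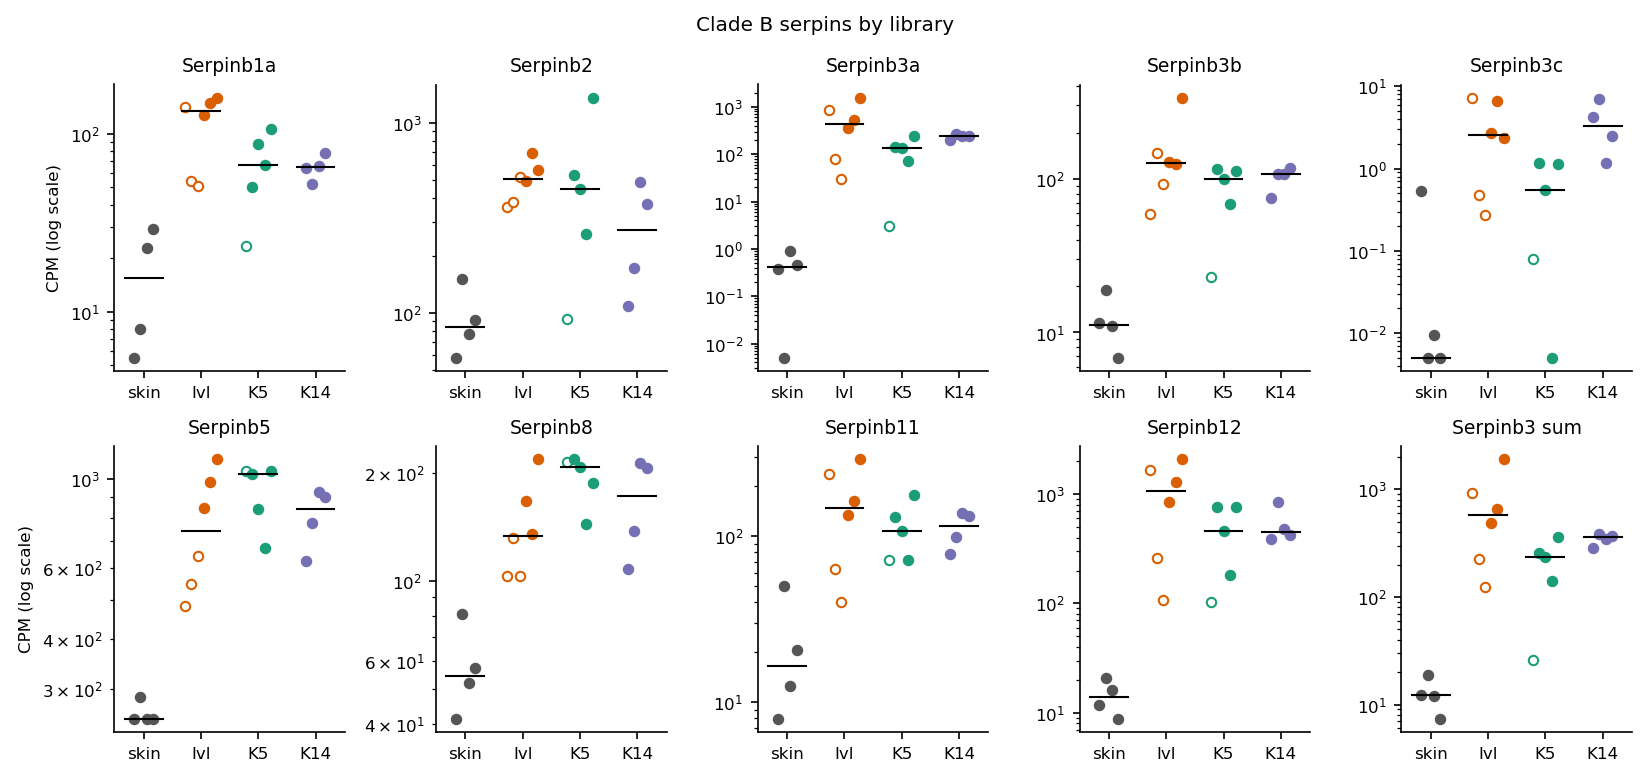
Level of each member in each library, in CPM on a log axis, with 1 panel per gene and 1 for the Serpinb3 sum, and the groups skin (4 libraries), Ivl (6), K5 (5) and K14 (4) along the horizontal axis. Bars mark medians, open symbols mark Ivl 1, Ivl 2, Ivl 3 and K5 1, and values of 0 are drawn at 0.005 CPM. Serpinb3a lay under 1 CPM in all 4 skin libraries and between 3.05 and 1576 CPM in the tumours.

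Serpinb3a and its copies are the mouse counterparts of human squamous cell carcinoma antigens, among which are inhibitors of lysosomal cysteine proteases. Serpinb3a was at 0.382, 0, 0.9 and 0.449 CPM in skin, which is 29, 0, 96 and 46 counts. In Ivl tumours it ranged from 30.2 to 1576 CPM with a median of 441, and in K5/K14 tumours from 3.05 to 267 CPM with a median of 204. Every tumour was above every skin library, and the lowest tumour was K5 1, which belongs to the set of 4. The log2 fold change of Serpinb3a over skin was 10.35 ± 1.59 (SE) in Ivl tumours (adjusted p = 8.1e-05) and 8.62 ± 1.48 in K5/K14 tumours (adjusted p = 0.00013). Without the set of 4 they were 10.86 and 8.78. Because skin held so few reads of this gene, the size of this fold is less certain than its direction.

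Serpinb3b was already present in normal skin, at 11.5, 18.9, 11 and 6.83 CPM. It was at 59.2 to 338 CPM in Ivl tumours (median 126) and at 23.0 to 117 CPM in K5/K14 tumours (median 107). No tumour overlapped skin. Serpinb3b rose by 3.62 ± 0.51 on the log2 scale in Ivl tumours (adjusted p = 3e-05) and by 2.93 ± 0.47 in K5/K14 tumours (adjusted p = 6e-05), and within the 15 libraries by 4.03 and 3.06.

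Serpinb3c had the lowest median of the members in skin and in both tumour groups. Its skin libraries held 40, 0, 1 and 0 counts, equal to 0.527, 0, 0.00937 and 0 CPM. In Ivl tumours it was at 0.276 to 7.3 CPM (median 2.53) and in K5/K14 tumours at 0 to 7.05 CPM (median 1.16). The groups overlapped, since normal skin 1 was above 2 Ivl tumours. The log2 fold change was 4.64 ± 1.65 in Ivl tumours and 3.91 ± 1.56 in K5/K14 tumours (adjusted p = 0.037 in both), and within the 15 libraries 4.91 and 4.09. This call rested on single libraries: the adjusted p for Ivl tumours was 0.05 to 0.087 without any 1 of Ivl 1, Ivl 4, Ivl 5, skin 2, skin 3 or skin 4, and for K5/K14 tumours 0.06 to 0.09 without any 1 of K14 2, skin 2, skin 3 or skin 4. Without skin 1 the log2 fold changes became 9.23 and 8.52, since only 1 count remained in skin. The call was also lost for Ivl tumours when the replicate number was a block (log2 fold change 5.26, adjusted p = 0.052).

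Summed over the 3 copies, Serpinb3 was at 12.4, 18.9, 11.9 and 7.28 CPM in skin, at 123 to 1916 CPM in Ivl tumours (median 572) and at 26.1 to 381 CPM in K5/K14 tumours (median 284). It rose by 5.84 ± 0.84 on the log2 scale in Ivl tumours (adjusted p = 4.1e-05) and by 4.40 ± 0.77 in K5/K14 tumours (adjusted p = 0.00013). A 2-sided exact permutation test of the mean log2 CPM of the sum over libraries gave p = 0.0095 for Ivl tumours and p = 0.0028 for K5/K14 tumours, the smallest values the designs allow (0.019 and 0.011 after adjustment over 8 such tests). Without the set of 4 the rise was 6.34 and 4.56, and the exact permutation test gave p = 0.057 and p = 0.004, again the smallest the designs allow (0.065 and 0.016 after adjustment).

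The copy that made up the sum was not the same in skin and tumours. Serpinb3b gave 92.7, 100, 92.4 and 93.8% of the summed CPM in skin, and Serpinb3a gave 3.08, 0, 7.55 and 6.17%. In Ivl tumours the share of Serpinb3a was 24.5 to 92.9% with a median of 76.6%. It was 11.7, 54.8, 57.5, 51.6 and 68.7% in the K5 tumours and 71.9, 70.1, 68.8 and 67.3% in the K14 tumours. The share was thus higher in each tumour than in any skin library, and the lowest tumour was again K5 1. The mean share exceeded that of skin by 60.4 percentage points in Ivl tumours (exact permutation p = 0.0095, 2-sided, adjusted 0.019) and by 53.8 in K5/K14 tumours (exact permutation p = 0.0028, adjusted 0.011), a test that was added after the values were seen. Without the set of 4 these differences were 74.3 points (exact permutation p = 0.057, the smallest the design allows) and 59.6 points (exact permutation p = 0.004).

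**Figure D2:**
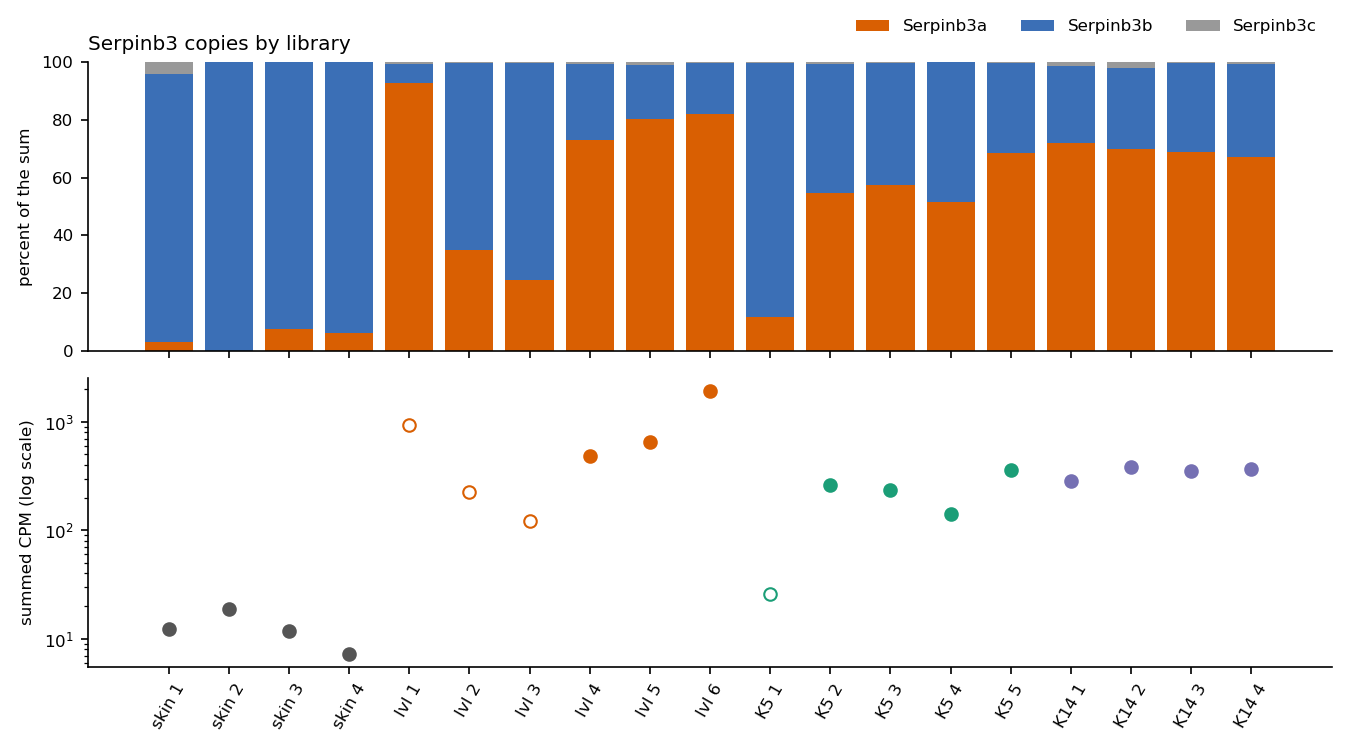
Share of Serpinb3a, Serpinb3b and Serpinb3c in the summed CPM of the 3 copies, in percent, as 1 stacked bar per library from 0 to 100%, above the summed CPM of each library on a log axis. In the 4 skin libraries Serpinb3b made up 92.4% or more, whereas Serpinb3a made up 11.7 to 92.9% in the 15 tumours.

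Serpinb12 inhibits trypsin-like serine proteases and is found in many epithelia. It was at 11.7, 20.7, 16.0 and 8.69 CPM in skin. It was at 107 to 2096 CPM in Ivl tumours (median 1070) and at 103 to 840 CPM in K5/K14 tumours (median 463), with no overlap. The lowest tumours, K5 1 and Ivl 3, both belonged to the set of 4. The log2 fold change was 6.19 ± 0.86 in Ivl tumours (adjusted p = 3.2e-05) and 5.10 ± 0.80 in K5/K14 tumours (adjusted p = 5.1e-05), or 6.63 and 5.24 within the 15 libraries. Among all genes tested this placed Serpinb12 at the 99.55th percentile of change in Ivl tumours, and Serpinb3a at the 99.95th.

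Serpinb11, which lies between Serpinb3c and Serpinb2 on the chromosome, rose less. It was at 7.9, 49.9, 12.5 and 20.7 CPM in skin, at 40.4 to 291 CPM in Ivl tumours (median 148) and at 71.4 to 176 CPM in K5/K14 tumours (median 108). The single overlap was between skin 2 and Ivl 3, a library of the set of 4. The log2 fold change was 2.76 ± 0.56 in Ivl tumours (adjusted p = 0.0009) and 2.29 ± 0.53 in K5/K14 tumours (adjusted p = 0.0015), or 3.1 and 2.36 within the 15 libraries.

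Serpinb2, the plasminogen activator inhibitor PAI-2, was at 57.9, 150, 77.4 and 91.2 CPM in skin. In Ivl tumours it was at 359 to 690 CPM (median 505) and above every skin library. In K5/K14 tumours it spread from 92.2 to 1354 CPM (median 373), and K5 1 and K14 1 lay within the range of skin. The log2 fold change was 2.41 ± 0.61 in Ivl tumours (adjusted p = 0.0053) and 2.17 ± 0.58 in K5/K14 tumours (adjusted p = 0.0041), or 2.63 and 2.31 within the 15 libraries. Its overlapping neighbour Serpinb10 was at 5.83 to 34.4 CPM in skin and 8.13 to 79.6 CPM in the tumours, lower than Serpinb2 in every library.

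Serpinb1a, an inhibitor of the serine proteases of neutrophil granules, was at 5.49, 7.99, 22.8 and 29.2 CPM in skin. It was at 51.0 to 160 CPM in Ivl tumours (median 134), above every skin library. In K5/K14 tumours it was at 23.3 to 106 CPM (median 66.2), and only K5 1 overlapped skin. It rose by 2.80 ± 0.51 on the log2 scale in Ivl tumours (adjusted p = 0.0003) and by 2.01 ± 0.47 in K5/K14 tumours (adjusted p = 0.0015), or by 3.15 and 2.12 within the 15 libraries. Serpinb1a is also made by neutrophils, whose 8 markers summed to 1.11 to 14.0 CPM in skin and 6.61 to 53.6 CPM in tumours. The marker Ly6g was at 0 in all 4 skin libraries, 3 of the 8 markers were raised in each comparison, and the part of neutrophils in the level of Serpinb1a was not tested.

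Serpinb5, known as maspin, is described as a tumour suppressor of epithelia and does not inhibit proteases in the classical way. It was at 253, 286, 252 and 252 CPM in skin, where it was the most even member. It was at 482 to 1121 CPM in Ivl tumours (median 744) and at 626 to 1048 CPM in K5/K14 tumours (median 901), so that each tumour was above every skin library. The log2 fold change was 1.56 ± 0.22 in Ivl tumours (adjusted p = 3e-05) and 1.75 ± 0.22 in K5/K14 tumours (adjusted p = 3.6e-06), or 1.91 and 1.71 within the 15 libraries.

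Serpinb8, an inhibitor of the proprotein convertase furin, showed the smallest change. It was at 41.3, 81.2, 52.0 and 57.2 CPM in skin, at 103 to 218 CPM in Ivl tumours (median 134) and at 108 to 218 CPM in K5/K14 tumours (median 206). No tumour overlapped skin. It rose by 1.31 ± 0.25 on the log2 scale in Ivl tumours (adjusted p = 0.00036) and by 1.65 ± 0.24 in K5/K14 tumours (adjusted p = 1.6e-05), or by 1.58 and 1.62 within the 15 libraries.

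**Figure D3:**
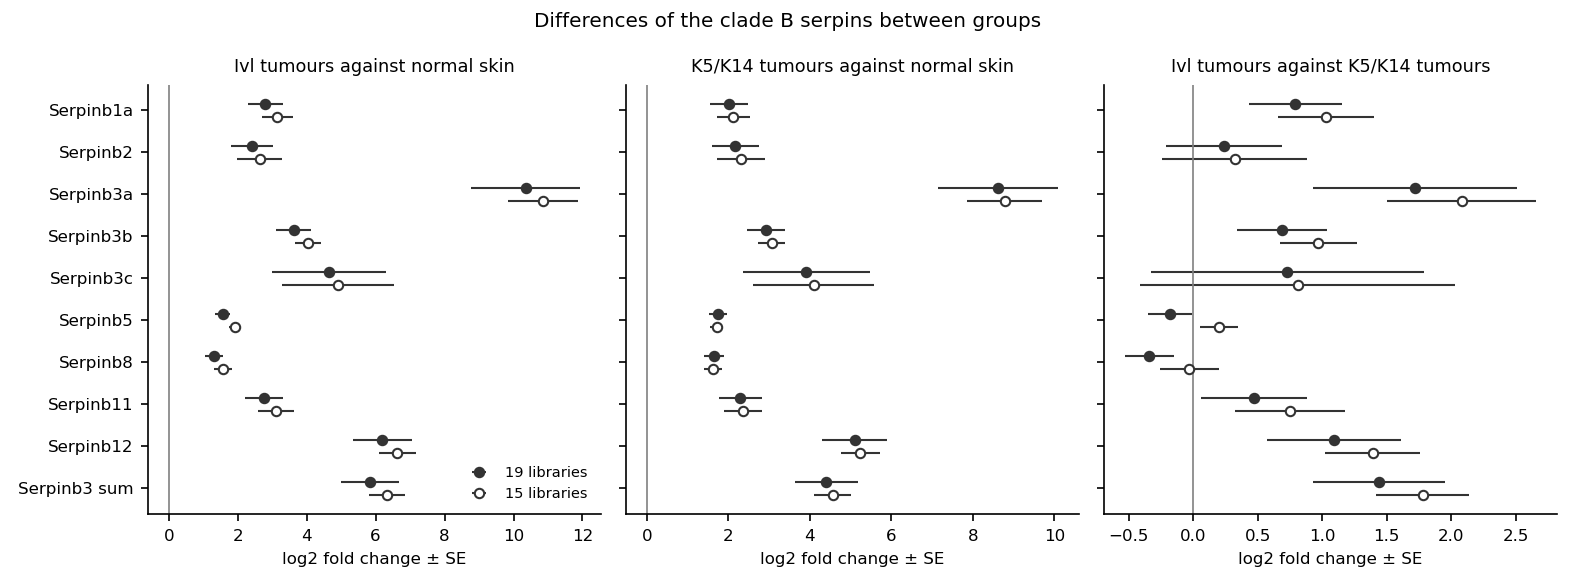
Log2 fold change of each member and of the Serpinb3 sum in 3 comparisons, Ivl over skin, K5/K14 over skin and Ivl over K5/K14, with standard errors, for all 19 libraries (filled) and the 15 without the set of 4 (open). All values against skin lay above 0, from 1.31 for Serpinb8 to 10.35 for Serpinb3a in Ivl tumours with all libraries.

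Counted by overlap, 7 members in Ivl tumours (not Serpinb3c or Serpinb11) and 6 members in K5/K14 tumours (not Serpinb1a, Serpinb2 or Serpinb3c) were above every skin library in all tumours of the group. Of all genes tested, 13.2% and 16.7% were so placed. Within the 15 libraries the counts were 9 and 7 members (the exceptions in K5/K14 tumours being Serpinb2 and Serpinb3c), against 22.3% and 17.3% of all genes.

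The order of the members by level, in CPM per kilobase of exon (RPKM), which allows genes of different length to be compared, was not the same in skin and tumours. In skin Serpinb5 was highest at a median of 91.9 RPKM, followed by Serpinb2 at 35.9 and Serpinb8 at 11.4. Serpinb12 at 5.55 and Serpinb3a at 0.255 RPKM stood low in that order. Neighbours in the skin order did not overlap between Serpinb5 and Serpinb2, Serpinb2 and Serpinb8, and Serpinb12 and Serpinb3a, and overlapped at the other steps.
In Ivl tumours Serpinb12 stood first at a median of 428 RPKM, then Serpinb3a at 271, Serpinb5 at 270 and Serpinb2 at 215, and Serpinb3b, Serpinb11, Serpinb1a and Serpinb8 followed at 74.8 to 27.9 RPKM. In K5/K14 tumours Serpinb5 stood first at 328 RPKM, then Serpinb12 at 185, Serpinb2 at 159 and Serpinb3a at 125, and Serpinb3b, Serpinb11, Serpinb8 and Serpinb1a followed at 63.3 to 28.7 RPKM. In both tumour groups every neighbour overlapped except at the last step, to Serpinb3c at 1.53 and 0.702 RPKM.

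Since keratinocyte markers were also higher in the tumours, each member was set against them, a scale added after the values were seen. The median summed basal markers were 6.95 times those of skin in Ivl tumours and 7.47 times in K5/K14 tumours, and the summed differentiated markers 7.67 and 5.14 times. Of the 7 basal markers 4 were raised in Ivl tumours and 6 in K5/K14 tumours, where Krt15 was lowered, and all 8 differentiated markers were raised in both. A sum follows its most abundant markers. The median log2 fold change per marker was 1.01 and 1.57 for the basal and 2.83 and 2.75 for the differentiated markers. Serpinb5 (1.56 and 1.75) and Serpinb8 (1.31 and 1.65) lay above the basal medians and below the differentiated medians.
Per 1000 CPM of basal markers, Serpinb12 was at 1.15 to 3.14 CPM in skin, with tumour medians of 19.4 (Ivl) and 8.72 (K5/K14), and 14 of 15 tumours were above all skin libraries. Serpinb3a was at 0 to 0.177 CPM in skin on this scale, against medians of 8.01 and 3.61, and 14 of 15 tumours were above. Serpinb5 was at 31.5 to 61.7 CPM in skin on this scale, against lower medians of 18.1 and 15.7, and 0 of 15 tumours were above all skin libraries. Serpinb8 was at 7.54 to 10.2 CPM in skin against medians of 3.41 and 3.59, also with 0 of 15 tumours above.
For the other members the ratio of the tumour median to the skin median per basal markers was 0.977 and 0.525 for Serpinb1a, 0.772 and 0.443 for Serpinb2, 1.58 and 0.963 for Serpinb3b, and 1.05 and 0.803 for Serpinb11, in Ivl and K5/K14 tumours. Per differentiated markers the ratios were 1.22 and 0.861 for Serpinb1a, 0.585 and 0.558 for Serpinb2, 1.54 and 1.54 for Serpinb3b, and 0.944 and 1.09 for Serpinb11, so the ratio crossed 1 between the scales for Serpinb1a in Ivl tumours, for Serpinb3b in K5/K14 tumours and for Serpinb11 in both. Per 1000 CPM of differentiated markers, 15 of 15 tumours were above all skin libraries for Serpinb3a and for Serpinb12, and the ratio of medians was 8.98 and 5.46 for Serpinb12 and 0.373 and 0.613 for Serpinb5. Serpinb3a and Serpinb12 thus remained higher than in skin in at least 14 tumours on both scales. The rise of Serpinb5 and Serpinb8 was not seen on either of these summed scales. Nor was that of Serpinb2 by the medians, with 2 of 15 tumours above all skin libraries on each scale. For Serpinb1a in K5/K14 tumours both ratios were also below 1.

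**Figure D4:**
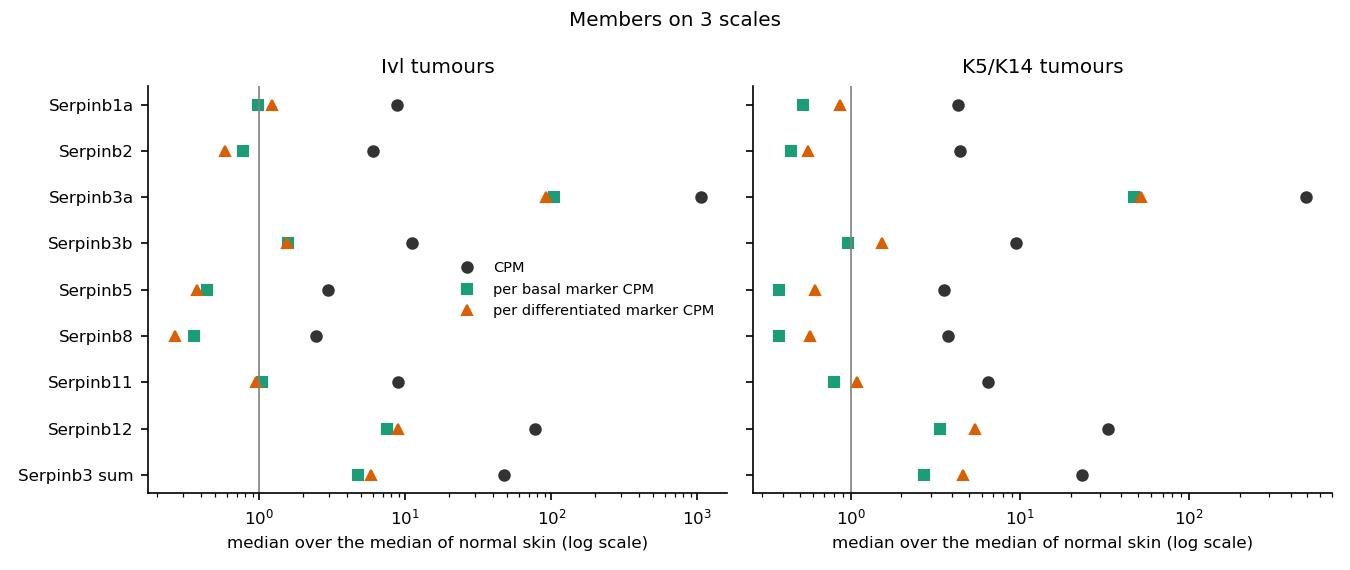
Ratio of the tumour median to the skin median for each member on 3 scales: CPM, CPM per basal keratinocyte markers and CPM per differentiated keratinocyte markers, for Ivl and K5/K14 tumours in a panel each, on a log axis with a line at equal medians. Serpinb3c is left out because its skin median was close to 0. Serpinb12 stayed above the line on every scale (3.39 or more). Serpinb2, Serpinb5 and Serpinb8 fell below it on both keratinocyte scales in both panels, and Serpinb1a did so in K5/K14 tumours.

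Ivl and K5/K14 tumours were compared directly to ask whether the members differed between them. These groups differ in the promoter that drove recombination and also in agent, time to onset and growth. No member was called with all 19 libraries, by edgeR or by DESeq2, where 2.36% of all genes were called by edgeR in either direction. The members with an unadjusted edgeR p under 0.05 were Serpinb3a (log2 fold change 1.72 ± 0.79, adjusted p = 0.22), Serpinb12 (1.09 ± 0.52, adjusted p = 0.23) and Serpinb1a (0.79 ± 0.36, adjusted p = 0.22). The values were 0.69 for Serpinb3b, 0.73 for Serpinb3c, 0.47 for Serpinb11, 0.24 for Serpinb2, -0.18 for Serpinb5 and -0.34 for Serpinb8.
The comparison moved with the set of 4 libraries, which holds 3 of the 6 Ivl tumours. Within the 15 libraries, all 3 remaining Ivl tumours were above all 8 K5/K14 tumours for 4 members, Serpinb1a, Serpinb3a, Serpinb3b and Serpinb12, a placement that 2.34% of all genes had. With all 19 libraries 0 members and 0.312% of genes had it. Still none of the 9 was called within the 15 libraries, where 0.41% of all genes were called. The largest log2 fold changes there were 2.08 ± 0.58 for Serpinb3a (adjusted p = 0.16), 1.39 ± 0.37 for Serpinb12 (adjusted p = 0.13), 1.03 ± 0.37 for Serpinb1a (adjusted p = 0.3) and 0.97 ± 0.30 for Serpinb3b (adjusted p = 0.2). Leaving out skin 2 as well, which is in neither group of this comparison, Serpinb3a was called at 2.04 (adjusted p = 0.045).

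The Serpinb3 sum was higher in Ivl than in K5/K14 tumours by 1.44 ± 0.51 on the log2 scale with all 19 libraries, which did not pass the test (edgeR adjusted p = 0.12). Within the 15 libraries the difference was 1.78 ± 0.36 and passed it (adjusted p = 0.048), as it did with the set of 4 as a covariate (2.24, adjusted p = 0.039). This call rested on single libraries: when each of the 15 was left out in turn it remained in 3 cases (without Ivl 4, skin 2 or skin 4), with differences of 0.95 to 2.12 and adjusted p of 0.033 to 0.33. An exact permutation test of the log2 CPM of the sum gave p = 0.095 with all libraries and p = 0.012 within the 15, the smallest that design allows (0.11 and 0.024 after adjustment). With the replicate number as a block the difference was 0.76 (adjusted p = 0.53). The share of Serpinb3a in the sum differed between Ivl and K5/K14 tumours by 6.57 percentage points (exact permutation p = 0.6) and within the 15 libraries by 14.6 points (exact permutation p = 0.012, adjusted 0.024).

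Between K5 and K14 tumours no member was called, nor was any of the 32031 genes by edgeR (0.0%), with 1945 genes at an unadjusted p under 0.05 and 201 called by DESeq2. The log2 fold changes of the members, K5 over K14, lay between -2.67 for Serpinb3c and 0.92 for Serpinb2, with a median of -0.00. Serpinb3c was the single member whose groups did not overlap, at 0.0794, 1.16, 0.542, 0 and 1.15 CPM in K5 tumours and 4.2, 7.05, 1.17 and 2.46 CPM in K14 tumours (adjusted p = 0.82). Groups did not overlap for 4.44% of all genes. The Serpinb3 sum was 26.1, 259, 236, 141 and 361 CPM in K5 and 284, 381, 349 and 366 CPM in K14 tumours. Its difference in mean log2 CPM was -1.17 (exact permutation p = 0.048, adjusted 0.064), and without K5 1 it was -0.54 (exact permutation p = 0.086). The share of Serpinb3a was 20.7 percentage points lower in K5 tumours by the means (difference -20.7, exact permutation p = 0.032, adjusted 0.051), and without K5 1 the difference was -11.4 (exact permutation p = 0.057).

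Among tumours the members varied together to different degrees. Over the 11 tumours outside the set of 4, 23 of the 36 pairs of members had a Pearson correlation of log2 CPM above 0.5 and 2 pairs were below 0, with a median of 0.616. The highest was 0.911 between Serpinb3b and Serpinb11, and the lowest was -0.175 between Serpinb3c and Serpinb8. The tumours come from 3 groups, and several share a group, so the values are a description. Spread also differed between members: over these 11 tumours the highest was 1.79 times the lowest for Serpinb5, 11.6 times for Serpinb12 and 21.7 times for Serpinb3a. Over all 15 tumours these ratios were 2.33, 20.3 and 517, and the last rests on K5 1.
Of 14609 genes compared over the same 11 tumours, those whose log2 CPM was most correlated with Serpinb12 were Rpap2 (r = 0.98) and Hpse (0.964), the gene of heparanase. Those most alike to Serpinb3a were Tmprss11a (0.974), a membrane serine protease of squamous epithelia, and BC002059 (0.961). For Serpinb11 they were Il1f8 (0.971), an interleukin of the IL-36 group, and mt-Tp (0.97), and for Serpinb2 they were Zfr (0.978) and Chuk (0.974), a kinase of the NF-κB pathway. For Serpinb5 they were Rbm3 (0.96) and Gm10156 (0.958), for Serpinb1a Agps (0.957) and Zfp780b (0.941), for Serpinb8 Ube2d3 (0.955) and Elmod1 (0.943), for Serpinb3b Kif16b (0.944) and Clip1 (0.941), and for Serpinb3c CT010445.1 (0.929) and Gm26873 (0.929). These are the highest of many correlations over few tumours and were not tested.

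The other clade B serpins, set apart from the members with earlier results of these data known, were mixed. Of these 16 genes 14 passed the filter on low counts, and 5 were raised and 0 lowered in Ivl tumours, with a median log2 fold change of 0.55, while 4 were raised and 3 lowered in K5/K14 tumours, with a median of -0.18. Of all genes tested, 15.5% were lowered in Ivl and 38.9% in K5/K14 tumours. Within the 15 libraries 5 were raised and 1 lowered in Ivl tumours, and 4 were raised and 4 lowered in K5/K14 tumours, where 32.7% and 42.3% of all genes were lowered. Serpinb6c, of the cluster on chromosome 13, was at 0.316 to 1.8 CPM in skin and at 9.08 to 237 CPM in tumours, and rose by 5.51 ± 0.74 in Ivl tumours (adjusted p = 2.7e-05) and by 7.05 ± 0.79 in K5/K14 tumours (adjusted p = 2.5e-06). Serpinb3d, the copy next to Serpinb3a with 89.2% identity to it, rose by 8.11 ± 1.80 in Ivl tumours (adjusted p = 0.0019) and by 5.75 ± 1.62 in K5/K14 tumours (adjusted p = 0.0057), from 0 to 0.075 CPM in skin. It was at 14.3, 0.181, 0.184, 0.992, 5.97 and 34.9 CPM in Ivl and at 0.0933 to 5.78 CPM in K5/K14 tumours. The size of these folds is therefore less certain than their direction.
Serpinb13, a serpin of keratinocytes that inhibits cathepsins, lies next to Serpinb12. Its level was low, at 0.497 to 2.81 CPM in skin, 0.515 to 1.77 CPM in Ivl and 0.024 to 0.658 CPM in K5/K14 tumours. It fell by 2.34 on the log2 scale in K5/K14 tumours (adjusted p = 0.0017). In Ivl tumours its value was -0.35 (adjusted p = 0.65), and it was the single clade B serpin called between Ivl and K5/K14 tumours (1.99 ± 0.52, adjusted p = 0.048), and within the 15 libraries, where it was not called, the value was 1.78 ± 0.61 (adjusted p = 0.25). Serpinb7, another keratinocyte serpin of the cluster, had log2 fold changes of -0.73 and -0.37 that did not pass the test. Serpinb9e had 0 counts in every skin library and 0.0307 to 1.08 CPM in the tumours. Along chromosome 1, 10 of 12 tested clade B serpins were raised in Ivl tumours and 9 of 12 in K5/K14 tumours, where 1 was lowered. Of all genes tested, 20.4% and 23.2% were raised. Of these 12 serpins, 8 are members, which were chosen with earlier results known and were all raised, so the counts are not a test. Of the others on chromosome 1, Serpinb3d and Serpinb10 were raised in Ivl tumours and Serpinb3d in K5/K14 tumours. On chromosome 13, where 1 of 11 is a member, 4 were raised in each comparison, and 2 were lowered in K5/K14 tumours.

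**Figure D5:**
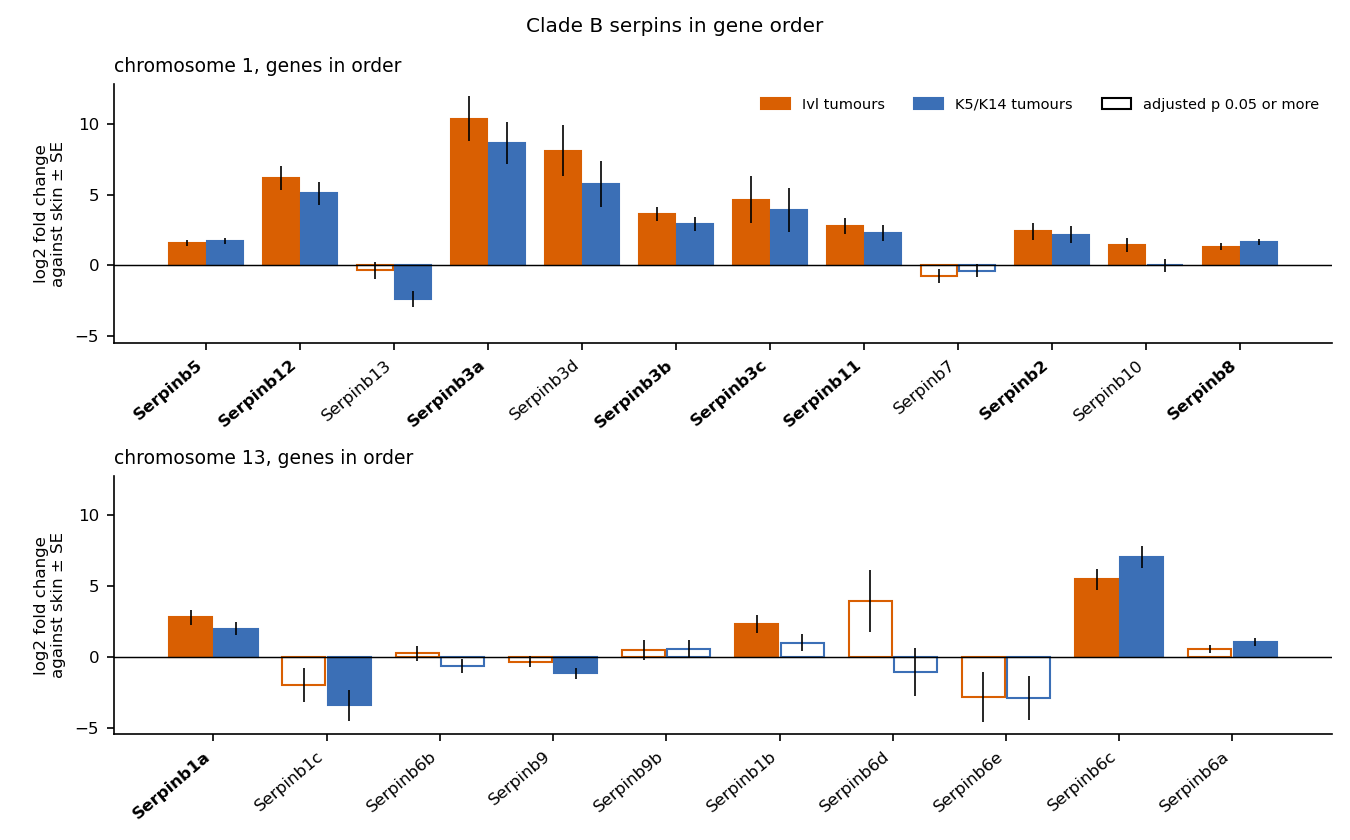
Log2 fold change over normal skin, with standard errors, of the tested clade B serpins in their order along chromosomes 1 and 13, for Ivl and K5/K14 tumours. Names of members are in bold, open bars did not pass the test (adjusted p of 0.05 or more), and Serpinb9e is left out because it had 0 counts in all skin libraries. On chromosome 1, Serpinb13 and Serpinb7 lie below 0 among raised neighbours.

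The proteases and other inhibitors that the members act on or beside were counted from lists by function, to be read against the 20.4% of all genes raised and 15.5% lowered in Ivl tumours, and the 23.2% raised and 38.9% lowered in K5/K14 tumours. Among 10 genes of plasminogen activation, the process that Serpinb2 restrains, 4 were raised in Ivl tumours and 5 were raised and 2 lowered in K5/K14 tumours. Serpine2, an inhibitor of plasminogen activators, rose by 2.15 ± 0.38 (adjusted p = 0.00019) and 3.08 ± 0.38 (adjusted p = 4.3e-06) on the log2 scale. Plau, the protease urokinase that Serpinb2 inhibits, rose by 1.51 ± 0.29 (adjusted p = 0.00043) and 2.20 ± 0.29 (adjusted p = 6e-06). In K5/K14 tumours Plg, the gene of plasminogen, fell by 2.98 and Hpn, a membrane serine protease, by 1.4. The list had median log2 fold changes of 0.63 and 1.15 in these comparisons.
Of 10 cysteine cathepsins, proteases of a kind that some proteins of the Serpinb3 group inhibit, 1 was raised and 1 lowered in Ivl tumours and 4 were raised and 2 lowered in K5/K14 tumours, with medians of -0.19 and 0.12. Ctsl, cathepsin L, rose by 1.61 ± 0.37 (adjusted p = 0.002) and 2.44 ± 0.37 (adjusted p = 2.5e-05), and Ctsc by 1.31 in K5/K14 tumours. Ctsw, a cathepsin of lymphocytes, fell by 1.42 and 1.61, and Ctso fell by 1.29 in K5/K14 tumours. Cystatins, small inhibitors of the same proteases, were raised in 5 of 7 in Ivl and 6 of 7 in K5/K14 tumours, with medians of 4.5 and 5.81. Stfa1 rose by 9.50 ± 1.11 (adjusted p = 1.8e-05) and 11.81 ± 1.19 (adjusted p = 1.5e-06), and Stfa2 by 9.64 and 11.40.

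Of 7 granule serine proteases, including the targets of Serpinb1a, 0 were raised and 2 were lowered in each comparison, with medians of -1.82 and -0.22. These values are of RNA, and the amount of protease protein in the tissue was not measured. Elane, neutrophil elastase, fell by 4.82 (adjusted p = 0.0013) and 3.63 (adjusted p = 0.0012), Gzma fell by 4.72 in Ivl tumours and Prtn3, proteinase 3, fell by 3.51 in K5/K14 tumours. Of 8 proprotein convertases and membrane serine proteases, 6 were raised in each comparison and 1, Pcsk6, was lowered in K5/K14 tumours (by 0.72), with medians of 1.01 and 1.36. Furin, which Serpinb8 inhibits, rose by 0.61 ± 0.20 (adjusted p = 0.022) and 0.94 ± 0.19 (adjusted p = 0.00037). The largest rises of the list were those of Tmprss11e (2.58 and 2.18) and Tmprss4 (2.31 and 2.73). None of the genes of these 5 lists was called by edgeR between Ivl and K5/K14 tumours.
The counts of some lists moved within the 15 libraries. In Ivl tumours, plasminogen activation then had 5 genes raised and 1 lowered, cathepsins 1 raised and 3 lowered, cystatins 6 raised, granule proteases 3 lowered, and convertases and membrane proteases 6 raised and 1 lowered. In K5/K14 tumours, granule proteases had 3 genes lowered, convertases and membrane proteases had 6 raised and 2 lowered, and the counts of the other 3 lists were as before. With all 19 libraries, the medians over all genes tested, against which these list medians stand, were -0.46 in Ivl and -0.60 in K5/K14 tumours.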

How the data were processed

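Bulk RNA was read as strand-specific poly(A) libraries, in pairs, for 15 mouse tumours and 4 samples of normal skin. According to the study's methods and the submitters' processing notes, the authors used FastQC 0.11.8, Trim Galore, HISAT2 2.1.0 against GRCm38 and featureCounts (Subread 1.6.3), and then adjusted the counts between sequencing batches with ComBat-seq. The values as deposited by the authors are therefore estimated counts per gene, adjusted by them for batch, and the strand setting of the counting is not given in the sources used here. The adjustment could move levels toward the mean of the other batch, and no unadjusted counts were analysed here. The set of 4 holds tumours only, whereas the other 15 libraries include the 4 of skin. Among the members, the log2 ratio of mean CPM, set over the other 15, ran from -0.255 for Serpinb3b to 0.0246 for Serpinb3c. For Serpinb12 the means were 534 and 574 CPM. Whether the adjustment changed the levels of the members in the set was not tested.

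The tests had been planned for raw counts and were run on these values as they were. edgeR 4.0.16 (TMM, robust quasi-likelihood, R 4.3.3) was fitted to all 19 libraries for genes that reached 5 counts in any 1 library. The adjusted p threshold was 0.05. DESeq2 1.42.0, other filters and scalings, the replicate block, the set of 4 libraries as a covariate or left out, and leaving out each library in turn were alternatives. The scripts were tested on simulated data. Identifiers matched GENCODE M21 for 34694 of 34807 genes. Coding sequences came from GENCODE M21 and GRCm38 and were aligned with Biopython 1.88 and mafft 7.526, and promoters came from RefSeq. Permutation tests were exact and 2-sided (scipy 1.17.1), on log2 of CPM plus 0.1 for the sum. Likeness was measured over genes with a mean of at least 1 CPM.

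The members and all gene lists were chosen with earlier results of these data known. Named genes were the members, any other clade B serpin, and of each other list at most 2 genes per direction with the largest change among those called, plus genes that a role of a member needed (Plau and Furin). The 2 genes most alike to each member were named too. 1 gene that this rule names is not reported here.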

Additional observations from a re-analysis of the deposited data

Results flagged for a closer look

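Each member and the Serpinb3 sum were checked for a library far from the others of its group, in 50 groups of 4 to 9 libraries, by Dixon's test at the 95% level. Of these 50 groups, 4 had one, where chance would give one in about 5% of independent groups. These groups are not independent, since the merged K5/K14 group repeats the K5 and K14 libraries and the sum repeats its copies. Serpinb2 was at 1354 CPM in K5 5, the highest of the 9 K5/K14 tumours. Serpinb3b was at 338 CPM in Ivl 6, the highest of the 6 Ivl tumours. Serpinb3c was at 0.527 CPM in normal skin 1, where the other skin libraries held at most 1 count. Serpinb5 was at 286 CPM in normal skin 2, where the other 3 skin libraries lay at 252 to 253 CPM.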

How the results depend on the processing

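Of 822 alternatives to the results of the members and the Serpinb3 sum against skin, 806 kept the direction and the call, and the other 16 lost the call, all of them for Serpinb3c. Within the 15 libraries without the set of 4, the number of genes called in Ivl tumours against skin was 17566 instead of 11515, and their share of raised genes was 40.4% instead of 56.8% (45.6% with DESeq2 size factors). For Ivl against K5/K14 tumours 756 genes were called, 131 within the 15, 449 with the set as a covariate and 2161 by DESeq2. For K5 against K14 tumours it was 0, 17 within the 15 and 201 by DESeq2. The Serpinb3 sum, Ivl against K5/K14, passed the test within the 15 (1.78) and with the covariate (2.24). Among uncalled values, Serpinb5 between Ivl and K5/K14 tumours turned to 0.20 within the 15, and between K5 and K14 tumours Serpinb11 turned to 0.12 (also 0.12 with the covariate) and Serpinb12 to 0.03. The causes were not tested.

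With 1 library left out at a time, of the 19 or of the 15, the genes called ranged over 9165 to 17541 for Ivl against skin, 50 to 1328 for Ivl against K5/K14 and 0 to 23 for K5 against K14. The members called between Ivl and K5/K14 tumours ranged over 0 to 1, and the Serpinb3 sum there over 0.86 to 2.12. Uncalled values that changed sign ranged, for Ivl against K5/K14, over -0.32 to 0.30 for Serpinb5 and -0.50 to 0.12 for Serpinb8, and for K5 against K14 over -0.20 to 0.41 for Serpinb1a, -0.43 to 0.10 for Serpinb3b, -0.23 to 0.31 for Serpinb11 and -0.50 to 0.33 for Serpinb12.

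The replicate numbers of the labels did not pair the samples: of 25 pairs of libraries with the same number, 9 had a correlation of deviations above 0.1 (range -0.484 to 0.391), and 2 libraries correlated best with their own number. With the replicate number as a block, 7700, 18286, 46 and 0 genes were called in the 4 comparisons in the order above, and Serpinb1a between K5 and K14 tumours turned to -0.22. Depth limits Serpinb3c, and Serpinb3a in skin.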
